A study of Homo sapiens with 9 samples.

Results

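BCL6, a transcriptional repressor, maintains the germinal-centre state of B cells. It silences genes by recruiting corepressor proteins. Described here are 9 genes for subunits of the 2 kinds of corepressor complex built on NCOR and on BCOR, namely NCOR1, HDAC3, TBL1X, TBL1XR1, GPS2, BCOR, BCORL1, PCGF1 and KDM2B. They were taken by symbol from a table of 26816 genes. No threshold on a measured value entered that choice, but earlier results of these data were known when it was made. All 9 had enough reads to be among the 15725 genes tested. The RNA came from OCI-Ly1, an established lymphoma cell line (diffuse large B-cell, human, with germinal-centre features), in which BCL6 itself was read at 635 to 661 CPM (reads scaled to library depth) in control libraries.

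Every culture carried an shRNA in the lentiviral vector pLKO1 and had been selected with puromycin, controls included. The control group (shSCR) had a non-targeting shRNA, and the other groups had 1 of 2 shRNAs against KDM1A, the gene for the histone demethylase LSD1. The count table calls these sh68 and sh72 after the clone names, whereas the sample titles number them, so the table's names are used. Each group had 3 libraries described as biological triplicates. No label gives the time between infection and harvest. KDM1A RNA stood at 120 to 123 CPM in the controls, 23.4 to 25.8 CPM with sh68 and 19.1 to 22.7 CPM with sh72, so that the targeted gene was low in each of the 6 libraries labelled with an LSD1 shRNA. Library totals ranged from 29506767 to 35270849 counted reads.

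In the NCOR complex, NCOR1 is a scaffold, HDAC3 is the histone deacetylase, TBL1X and TBL1XR1 are WD40-repeat proteins that bind histone tails and help exchange the complex on chromatin, and GPS2 is a small subunit that holds the core together. BCOR, or its relative BCORL1, belongs to PRC1.1, a Polycomb complex in which PCGF1 joins BCOR to a ubiquitin ligase for histone H2A and KDM2B brings the complex to CpG islands through a zinc finger that reads unmethylated CG dinucleotides. BCL6 binds NCOR1 and BCOR through its BTB domain, and BCOR and TBL1XR1 are mutated in some lymphomas. LSD1 works mainly in another complex, with CoREST.

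Identity of the B-cell culture was checked on 8 B-cell markers, all read in every group. Their summed level, scaled by library size alone, was 5400 to 5540 CPM in shSCR, 5600 to 5700 CPM with sh68 and 3860 to 3950 CPM with sh72. Of these 8 markers, 8 passed the test as lower with sh72, as did 26.3% of all genes tested. With sh68, 3 were higher, 2 lower and 3 did not pass, where 27.4% of all genes were higher and 28.1% lower. PAX5, a B-cell identity factor, was at 555 ± 21.3 CPM in shSCR, 608 ± 10.9 with sh68 and 270 ± 12.7 with sh72 (SD, n = 3). Markers of other cell types summed to no more than 1.19 CPM for T cells, 0.0567 for natural killer cells, 0.496 for monocytes and macrophages, 3.52 for fibroblasts and stroma and 0.371 for erythroid cells in any library, and the 7.6 to 17.8 CPM of the epithelial list lay almost wholly in EPCAM. The lower B-cell markers with sh72 stand beside every sh72 value given here, and their part in those values was not tested. In bulk RNA, fewer cells of a kind and less RNA per cell cannot be told apart.

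Levels can be compared between genes when divided by length, here as CPM per kilobase of the longest annotated transcript. On that scale HDAC3 was highest in control cells at 54.0 ± 1.45 (SD, n = 3), followed by TBL1XR1 at 29.7 ± 2.00, NCOR1 at 23.5 ± 0.395, GPS2 at 23.0 ± 1.16 and KDM2B at 15.4 ± 0.726. BCOR came next at 8.89 ± 0.619, then TBL1X at 7.89 ± 0.393, PCGF1 at 5.51 ± 0.116 and BCORL1 at 3.34 ± 0.326. NCOR1 and GPS2 overlapped in this order, as did BCOR and TBL1X, while the other neighbours were separate in all 3 control libraries. BCL6 stood at 156 ± 3.24 on the same scale. The order depends on the transcript chosen: by the median length of a gene's transcripts, TBL1XR1 (417) and NCOR1 (209) stood above HDAC3 (146).

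**Figure D1:**
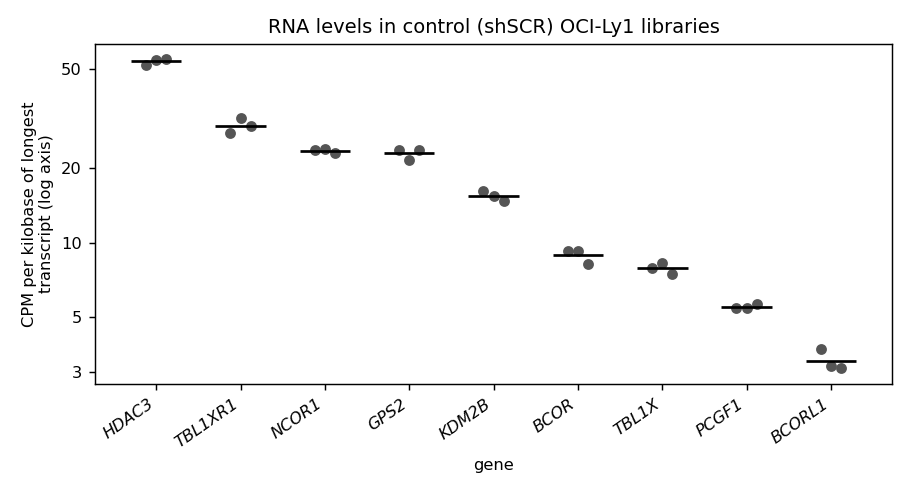
Level of each of the 9 genes in the 3 control libraries, in CPM per kilobase of the longest transcript on a log axis; points are libraries and lines are means. HDAC3 lies highest at 54.0 and BCORL1 lowest at 3.34.

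Each shRNA was compared with shSCR, and the shRNAs with each other, to ask whether RNA for these corepressors moved when LSD1 was depleted. With sh68, 3 of the 9 genes rose (TBL1XR1, GPS2 and BCOR), 4 fell (PCGF1, TBL1X, HDAC3 and BCORL1) and 2 did not pass (NCOR1 and KDM2B). With sh72, 1 rose (NCOR1), 6 fell (BCOR, BCORL1, PCGF1, TBL1X, KDM2B and TBL1XR1) and 2 did not pass (HDAC3 and GPS2). Passing means an edgeR quasi-likelihood p below 0.05 after Benjamini-Hochberg adjustment over all genes tested. That bar was met by 55.5% of all genes with sh68 (27.4% higher and 28.1% lower) and by 51% with sh72 (24.7% higher and 26.3% lower). The 9 genes are well read, and among the 9251 genes with at least the average level of PCGF1, the least read of them, 65.2% passed with sh68 and 62.3% with sh72, against 7 of 9 (77.8%) in each case.

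The changes were modest. The median absolute log2 fold change of the 9 genes was 0.28 with sh68 and 0.26 with sh72, where all tested genes had 0.25 and 0.23. TBL1XR1 with sh68 and BCOR with sh72 were the extremes among them, at 0.48 and -0.46. Of all tested genes, 26.4% changed by more than the first with sh68 and 25.3% by more than the second with sh72. Both comparisons use the same 3 control libraries, so they are not independent of each other.

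The test between the shRNAs uses no control library. In sh72 minus sh68, 2 of the 9 genes were higher (HDAC3 and NCOR1), 5 were lower (BCOR, TBL1XR1, KDM2B, BCORL1 and GPS2) and 2 did not pass (TBL1X and PCGF1). Among all genes 56.2% passed, 27.2% higher and 29% lower. So most of these corepressor genes had different levels under the 2 shRNAs, as did most genes in the table, and KDM1A, reduced by both, was itself lower with sh72 than with sh68 (-0.23 ± 0.061, edgeR adjusted p = 0.00261). Among the 9251 well-read genes, 67.7% differed between the shRNAs.

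**Figure D2:**
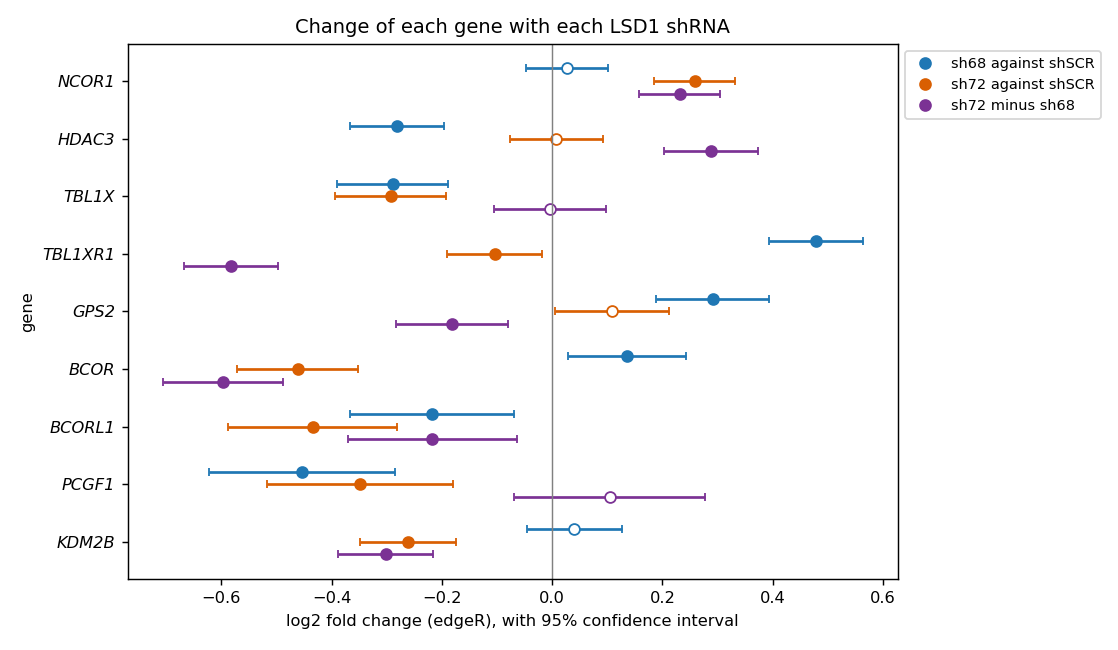
Log2 fold change of each gene with sh68 and with sh72 against shSCR, and of sh72 minus sh68, with 95% confidence intervals from the edgeR fit; filled points passed the test and open points did not. TBL1X and PCGF1 lie left of 0 with both shRNAs, whereas TBL1XR1 and BCOR lie right of 0 with sh68 (0.48 and 0.14) and left of it with sh72 (-0.10 and -0.46).

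NCOR1, the scaffold, lies on chromosome 17 (GRCh38.p14, 16029157 to 16215534, minus strand). It was read at 253, 255 and 247 CPM in shSCR, at 259, 250.1 and 261 CPM with sh68, and at 307, 293 and 304 CPM with sh72. All 3 sh72 libraries were above all others, and sh68 overlapped the controls. NCOR1 rose 1.20-fold with sh72 (log2 0.26 ± 0.036 SE, edgeR adjusted p = 1.71e-06). With sh68 it had 0.03 ± 0.036 (95% confidence interval -0.05 to 0.10, edgeR adjusted p = 0.537). The gap between the shRNAs, 0.23 ± 0.036, passed (edgeR adjusted p = 6.07e-06). Exons of PIGL on the other strand overlap 2.08% of its exonic bases, and its pseudogene NCOR1P1 had 1 read in all 9 libraries together.

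A short stretch of NCOR1 is shown because it holds the letters of the consensus that BCL6 recognises. RefSeq promoter windows, from 250 bases before a start to 50 after it, were searched on both strands for the core TTCNNNGAA, which STAT factors share. It was found in 1 of the 17 windows of the 9 genes and in 7.66% of all 35116 windows. The 1 match was at the downstream of NCOR1's 2 starts, and there it read TTCCTAGAA, which 0.373% of windows hold. It begins at base 6 after that start (GRCh38.p14, chr17:16194615-16194644, minus strand, match in capitals).

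NCOR1: tttaggtggtTTCCTAGAAacatgattgtt

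In GENCODE, this start is also the first base of an internal exon in 8 of 27 NCOR1 transcripts and of a first exon in 1, so the stretch crosses an exon edge and may not be a promoter. A match is a description of letters only, and no binding data are used here.

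HDAC3, the enzyme of the complex, lies on chromosome 5 (141620881 to 141636849, minus strand). Control libraries had 103, 107 and 108 CPM, sh68 libraries 84.4, 87.2 and 89.4 CPM, and sh72 libraries 110.0, 105 and 103 CPM. Here the pattern was the reverse in its arms: sh68 was below every control and sh72 overlapped the controls. HDAC3 fell by 17.7% with sh68 (-0.28 ± 0.041, edgeR adjusted p = 3.39e-06). With sh72 the value was 0.0075 ± 0.041 (95% confidence interval -0.08 to 0.09, edgeR adjusted p = 0.895). Sh72 was 1.22-fold above sh68 (0.29 ± 0.041, edgeR adjusted p = 1.97e-06). Scaffold and enzyme thus differed between the shRNAs in the same direction, but each departed from control under only 1 of them in this test. An antisense GENCODE gene without counts here overlaps 9.2% of HDAC3's exonic bases on the other strand.

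TBL1XR1, on chromosome 3 (177019344 to 177201800, minus strand), showed the largest rise of the 9 genes. It had 221, 253 and 234 CPM in shSCR, 325, 329.9 and 331 CPM with sh68, and 219, 215 and 224 CPM with sh72. The sh68 libraries were tightly grouped above the rest, and sh72 overlapped the lower end of the controls. TBL1XR1 rose 1.39-fold with sh68 (0.48 ± 0.041, edgeR adjusted p = 8.09e-10) and stood 33.2% lower with sh72 than with sh68 (-0.58 ± 0.041, edgeR adjusted p = 2.3e-11). Against shSCR its fall with sh72 was small (-0.10 ± 0.042, edgeR adjusted p = 0.0397) and passed in only 4 of 18 alternative analyses. That call ended without shSCR replicate 2 (-0.04) or 3 (-0.10), without sh68 replicate 1, 2 or 3 (-0.09 each) and without sh72 replicate 2 (-0.07) or 3 (-0.10). It also ended with RLE scaling, no filter, 1 CPM in 3 libraries, DESeq2 and the groups compared alone (-0.09 each). Library size alone (-0.06) and offsets for GC content and length (-0.04) ended it too.

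TBL1X, its X-linked paralog (chromosome X, 9463295 to 9719740, plus strand), moved alike under both shRNAs. Levels were 55.8, 58.5 and 52.9 CPM in shSCR, 45.9, 45.2 and 45.7 CPM with sh68, and 46.2, 46.7 and 43.5 CPM with sh72. Every LSD1 shRNA library was below every control. TBL1X fell by 18.2% with sh68 (-0.29 ± 0.049, edgeR adjusted p = 2.12e-05) and fell by 18.4% with sh72 (-0.29 ± 0.049, edgeR adjusted p = 2.17e-05). Sh72 minus sh68 was -0.0038 ± 0.049, with a 95% confidence interval from -0.11 to 0.10 (edgeR adjusted p = 0.955). A related gene on the Y chromosome can share reads with TBL1X, and how such reads were counted is not given in the sources used here.

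Since TBL1X and TBL1XR1 can occupy the same place in the complex, their ratio was followed in each library. Per kilobase, TBL1XR1 RNA was 3.52, 3.84 and 3.93 times that of TBL1X in shSCR, 6.29, 6.49 and 6.43 times with sh68, and 4.22, 4.10 and 4.57 times with sh72. Its size depends on the lengths used, as the median transcript lengths gave 417 against 16.6 CPM per kilobase in shSCR, but a fixed length leaves the comparison between groups as it is. No 2 groups overlapped in this ratio. BCOR was 2.67 ± 0.200 times BCORL1 in shSCR, 3.40 ± 0.143 with sh68 and 2.63 ± 0.362 with sh72 (SD, n = 3 each), so that sh68 stood above the others. These ratios are descriptions, and with 3 libraries against 3 the smallest two-sided exact permutation p is 0.1.

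**Figure D3:**
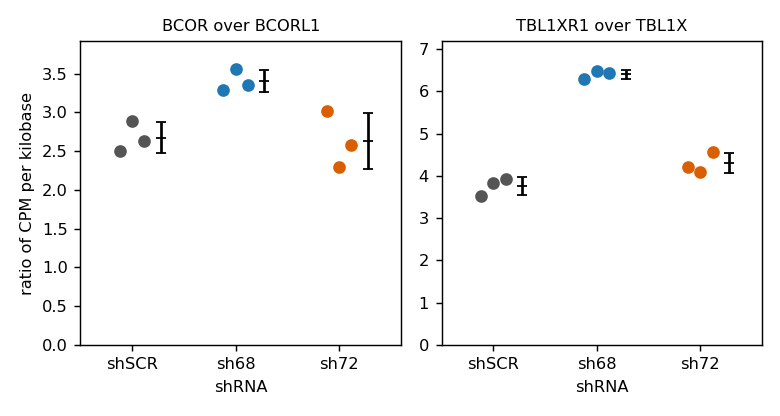
Ratio of CPM per kilobase between paralogs in every library; points are libraries, and bars are mean ± SD of 3. The ratio of TBL1XR1 over TBL1X is 3.76 in shSCR, 6.40 with sh68 and 4.30 with sh72.

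GPS2 is a short gene on chromosome 17 (7312661 to 7315360, minus strand). It had 46.9, 42.8 and 46.6 CPM in shSCR, 56.2, 53.4 and 57.4 CPM with sh68, and 50.2, 49.6 and 47.3 CPM with sh72. Both LSD1 shRNA groups lay above all 3 controls, sh68 further than sh72. GPS2 rose 1.22-fold with sh68 (0.29 ± 0.050, edgeR adjusted p = 2.48e-05). With sh72 the value was 0.11 ± 0.050 and did not pass (edgeR adjusted p = 0.074), although it did in 7 of 18 alternatives, among them library size alone (0.15), RLE scaling (0.12) and the fits without shSCR replicate 1 (0.15), sh68 replicate 2 (0.12) or sh72 replicate 3 (0.15). Sh72 was lower than sh68 (-0.18 ± 0.049, edgeR adjusted p = 0.00282). A GENCODE gene on the same strand shares 44.7% of its exonic bases and is not a row of the table, and EIF5A overlaps 7.8% on the other strand, so some GPS2 reads may belong to these neighbours.

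BCOR, on chromosome X (40051246 to 40177277, minus strand), is the core of the Polycomb-type corepressor and differed most between the shRNAs. Controls had 59.3, 58.9 and 52.3 CPM, sh68 libraries 62.0, 62.6 and 62.8 CPM, and sh72 libraries 43.7, 39.4 and 40.6 CPM. All sh72 values were below, and all sh68 values above, the control range. BCOR fell by 27.4% with sh72 (-0.46 ± 0.053, edgeR adjusted p = 1.22e-07). It rose slightly with sh68 (0.14 ± 0.052, edgeR adjusted p = 0.0287), a call that ended without shSCR replicate 3 (0.08), without sh68 replicate 3 (0.14) and with DESeq2 (0.13). In sh72 minus sh68 it stood at -0.60 ± 0.053 (edgeR adjusted p = 1.04e-09), past the threshold in 18 of 18 alternatives, and 19.3% of tested genes differed by more.

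BCORL1, also on chromosome X (129980313 to 130058071, plus strand), fell with both. The 3 control values were 26.5, 22.8 and 22.2 CPM, against 21.0, 19.6 and 20.9 CPM with sh68 and 16.2, 19.2 and 17.6 CPM with sh72. Controls were highest and sh72 lowest, with no overlap between groups. The fall was -0.43 ± 0.074 with sh72 (edgeR adjusted p = 2.8e-05) and -0.22 ± 0.072 with sh68 (edgeR adjusted p = 0.0132). The call for sh68 ended without shSCR replicate 1 (-0.12) or without sh68 replicate 2 (-0.17). The difference between shRNAs, -0.22 ± 0.074 (edgeR adjusted p = 0.0155), likewise ended without sh68 replicate 1 (-0.20) or 3 (-0.20), or without sh72 replicate 1 (-0.16).

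PCGF1, on chromosome 2 (74505043 to 74507695, minus strand), was the least read of the 9 genes, with 229 to 317 reads per library. Its levels were 9.77, 9.73 and 10.1 CPM in shSCR, 7.03, 7.44 and 7.16 CPM with sh68, and 7.90, 7.58 and 7.77 CPM with sh72. All 6 LSD1 shRNA libraries were below all 3 controls. PCGF1 fell by 27% with sh68 (-0.45 ± 0.082, edgeR adjusted p = 5.04e-05) and fell by 21.4% with sh72 (-0.35 ± 0.081, edgeR adjusted p = 0.000955). The shRNAs did not differ by test (0.11 ± 0.084, 95% confidence interval -0.07 to 0.28, edgeR adjusted p = 0.3), although their 3 libraries did not overlap.

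KDM2B, on chromosome 12 (121408461 to 121582279, minus strand), followed BCOR. It had 108, 103 and 98.2 CPM in shSCR, 106, 104 and 108 CPM with sh68, and 88.4, 85.5 and 83.8 CPM with sh72. The sh72 libraries were below all others and sh68 lay among the controls. KDM2B fell by 16.6% with sh72 (-0.26 ± 0.042, edgeR adjusted p = 1.43e-05), a value that shrank to -0.16 with offsets for GC content and length and still passed. With sh68 it had 0.04 ± 0.042 (95% confidence interval -0.05 to 0.13, edgeR adjusted p = 0.426). Sh72 was lower than sh68 by test (-0.30 ± 0.042, edgeR adjusted p = 1.4e-06). Exons of RNF34 on the other strand overlap 3.22% of its exonic bases.

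**Figure D4:**
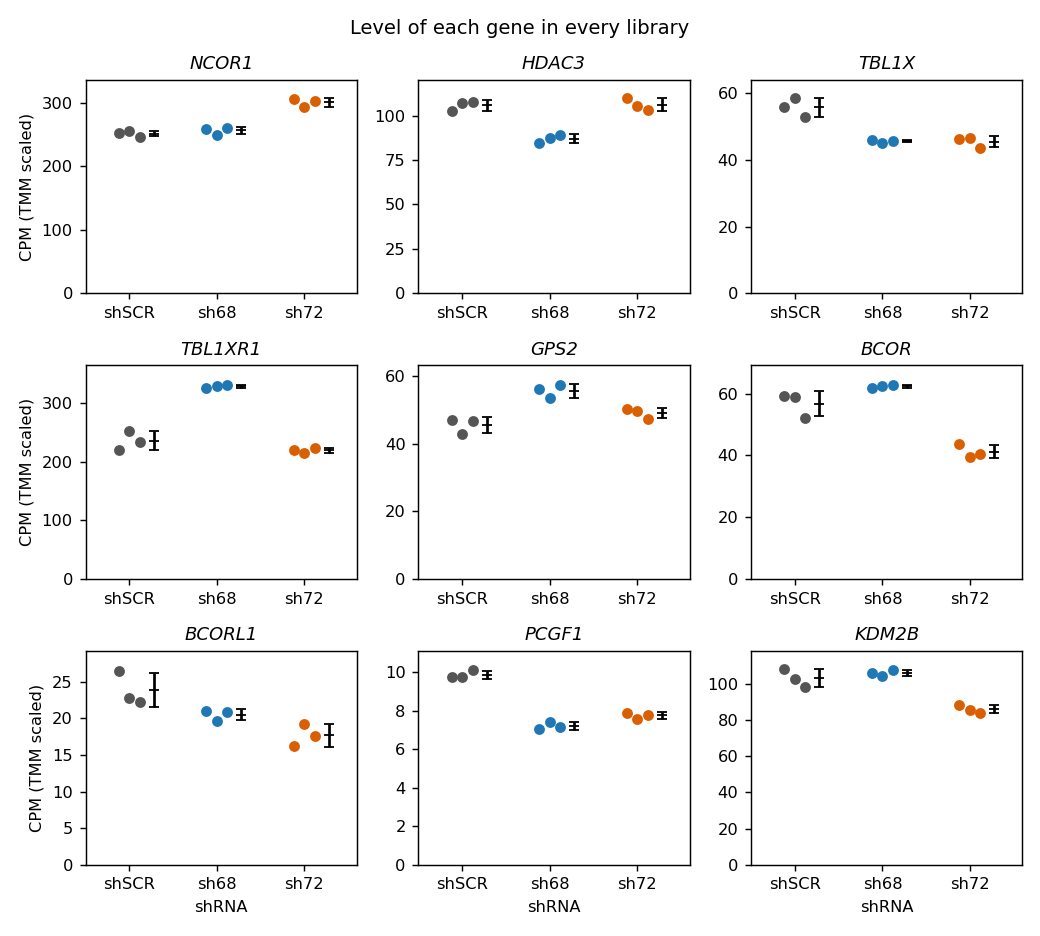
CPM of each of the 9 genes in every library, on axes that start at 0; points are libraries, and bars are mean ± SD of 3. With sh72, BCOR (39.4 to 43.7 CPM) and KDM2B (83.8 to 88.4 CPM) lie below all control and sh68 libraries, and with sh68 TBL1XR1 (325 to 331 CPM) lies above all others.

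Among the 36 pairs of these genes, BCOR and KDM2B had the highest Pearson r of log2 CPM over the 9 libraries (0.98), and HDAC3 and TBL1XR1 the lowest (-0.92). The 9 libraries form 3 groups of replicates, so such values describe 3 group patterns. BCOR and KDM2B also both have a promoter window rich in CG, the dinucleotide that KDM2B reads, and the 250 bases before those starts are shown for that reason. Over the 300-base windows, the start of BCOR with the most CG dinucleotides had 29 and that of KDM2B had 46, where the median of all 35116 windows was 14. The BCOR stretch is chrX:40146634-40146883 and holds 25, the KDM2B stretch is chr12:121467379-121467628 and holds 34 (GRCh38.p14, RefSeq, both on the minus strand, CG in capitals).

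BCOR: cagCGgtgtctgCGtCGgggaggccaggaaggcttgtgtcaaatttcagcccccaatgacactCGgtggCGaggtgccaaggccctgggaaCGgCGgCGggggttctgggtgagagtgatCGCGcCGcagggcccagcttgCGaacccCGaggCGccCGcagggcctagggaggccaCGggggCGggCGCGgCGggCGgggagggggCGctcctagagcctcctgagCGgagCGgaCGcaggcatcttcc
KDM2B: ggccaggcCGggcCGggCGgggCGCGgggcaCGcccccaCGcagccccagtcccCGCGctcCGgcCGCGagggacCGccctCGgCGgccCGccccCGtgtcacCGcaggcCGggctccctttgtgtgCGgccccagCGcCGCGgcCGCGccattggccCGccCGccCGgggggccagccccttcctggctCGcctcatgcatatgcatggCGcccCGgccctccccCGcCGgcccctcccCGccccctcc

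BCOR has 2 RefSeq windows, and the one not shown holds 7 CG dinucleotides, below the median of all windows. KDM2B has 4, and those not shown hold 15, 33 and 15. The counts do not say which start was used in these cells. Of the 17 windows of the 9 genes, NCOR1's downstream window was the one with 0 CG dinucleotides. Richness in CG was not particular to BCOR and KDM2B, since NCOR1, HDAC3, TBL1X, TBL1XR1, GPS2 and BCORL1 each had a window with more CG than that of BCOR, which lay just above the upper quartile of all windows (28). PCGF1 was the exception.

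For the 3 genes with the largest change under either shRNA, the genes with the most similar pattern were sought among 9304 others with an average log2 CPM of at least 3. TBL1XR1 was nearest to MGAT5 (r = 0.994), CRTAP (0.992) and GSK3B (0.992). BCOR was nearest to ARHGAP25 (0.992), FRMD8 (0.991) and IQGAP1 (0.989), and PCGF1 to DCLRE1C (0.996), HERPUD1 (0.991) and SLC26A2 (0.991). These are descriptions over 9 libraries in 3 groups.

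On the mean of both shRNAs, 9 of the 9 genes passed, 3 higher (NCOR1, TBL1XR1 and GPS2) and 6 lower, against 52.3% of all genes (24.9% higher and 27.5% lower) and 62.5% of the 9251 well-read genes. This mean joins passing values of opposite sign under the shRNAs for BCOR (-0.16 ± 0.045) and TBL1XR1 (0.19 ± 0.036). Signs also differed for HDAC3 and KDM2B, where only 1 shRNA passed against shSCR, as for NCOR1 and GPS2. With the 6 LSD1 shRNA libraries as 1 group, a fit in which any gap between sh68 and sh72 widens the error, 3 of the 9 passed, each as lower. These were BCORL1 (-0.32, edgeR adjusted p = 0.0387), TBL1X (-0.29, edgeR adjusted p = 0.00258) and PCGF1 (-0.40, edgeR adjusted p = 0.00424). In the fit with 1 term per shRNA, whose error leaves out that gap, they had -0.33 ± 0.063, -0.29 ± 0.042 and -0.40 ± 0.070. The fall of KDM2B on the mean (-0.11 ± 0.036, edgeR adjusted p = 0.013) ended with library size alone (-0.08) and with offsets for GC content and length (-0.04). It also ended without shSCR replicate 1 (-0.06) or 2 (-0.10), without sh68 replicate 2 (-0.09) and without sh72 replicate 2 (-0.10) or 3 (-0.09). That of BCOR ended without shSCR replicate 1 (-0.12) or 2 (-0.13).

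Other members of the same complexes were followed through lists written from general knowledge. Of 3 further partners of the NCOR complex, 1 rose and 2 fell with sh68, and 0 passed with sh72 in edgeR, where 0 had an unadjusted p under 0.05. With sh72, DESeq2 and limma-voom called 0 of them as well. Over all genes, 55.5% passed with sh68 and 51% with sh72 in edgeR. CORO2A, an actin-binding protein reported in the complex, rose with sh68 (0.45 ± 0.11), while KDM4A, a demethylase for lysine 9 and lysine 36 of histone H3, fell (-0.39 ± 0.038), as did ZBTB33, the methyl-CpG-binding repressor Kaiso (-0.22 ± 0.050). KDM4A and ZBTB33 were higher with sh72 than with sh68 (0.36 ± 0.038 and 0.30 ± 0.050), the direction also seen for HDAC3, and CORO2A was lower (-0.31 ± 0.10).

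Of 6 other PRC1.1 subunits, 5 were tested. RING1 had 1 read in all libraries together. With sh68, SKP1, a ubiquitin ligase adaptor, fell (-0.33 ± 0.042) and the other 4 did not pass. Over all genes, 55.5% passed with sh68 and 51% with sh72. With sh72, RNF2, the catalytic ligase RING1B, fell (-0.51 ± 0.073) from 24.3 ± 2.34 CPM in control to 17.0 ± 1.11, and so did RYBP (-0.20 ± 0.053), a subunit that stimulates it. RNF2 and RYBP were also lower with sh72 than with sh68 (-0.54 ± 0.072 and -0.16 ± 0.053), like BCOR and KDM2B. SKP1 was higher (0.43 ± 0.042). YAF2, the alternative to RYBP, and the deubiquitinase USP7 had 0.03 ± 0.058 and -0.02 ± 0.039 with sh72.

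Of 23 genes for other corepressors reported to act with BCL6, 11 rose and 6 fell with sh68, and 6 rose and 10 fell with sh72, with medians of 0.14 and -0.07 (all genes -0.01 and -0.01, of which 55.5% and 51% passed). HDAC9, a class IIa deacetylase, had the largest change on the mean of both shRNAs and rose from 51.7 ± 1.58 CPM to 123 ± 3.16 (sh68) and 82.0 ± 8.52 (sh72). HDAC7, of the same class, fell from 183 CPM to 155 and 125, MTA2 of the NuRD complex from 401 to 282 and 333, and SIN3B, a scaffold of another deacetylase complex, from 91.0 to 68.3 and 78.0. CTBP2, a corepressor that senses NADH, moved in opposite directions, from 2.25 ± 0.266 CPM up to 5.20 ± 0.475 (sh68) and down to 1.04 ± 0.186 (sh72), and its difference between shRNAs was -2.32 ± 0.16 (edgeR adjusted p = 1.57e-11).

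BCL6 fell by 13.4% with sh68 (-0.21 ± 0.037, edgeR adjusted p = 5.3e-05) and fell by 6.5% with sh72 (-0.10 ± 0.037, edgeR adjusted p = 0.034). Of 24 tested transcription factors and corepressors that recruit NCOR, BCL6 among them, 8 rose and 8 fell with sh68, and 2 rose and 12 fell with sh72. Their medians were -0.02 and -0.17, both -0.01 over all genes. The shares of all genes that passed were 55.5% with sh68 and 51% with sh72 (24.7% higher and 26.3% lower). CBFA2T3, a corepressor of the ETO family that binds NCOR, fell from 9.05 CPM to 5.35 (sh68) and 1.69 (sh72). NR1H3, the oxysterol receptor LXR alpha, fell from 3.06 to 1.56 and 1.38, and NR4A1, an immediate early nuclear receptor, from 2.68 to 1.95 and 1.06. ZBTB16, a BTB zinc finger relative of BCL6, had 18, 14 and 27 reads in shSCR, 80, 73 and 101 with sh68 and 10, 10 and 13 with sh72. BCL6B, the closest paralog of BCL6, had 0, 0 and 1 reads in shSCR, 10, 17 and 16 with sh68, and 1, 3 and 2 with sh72, too few in control for a fold change.

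The target side of these complexes moved in both directions. Of 29 tested genes that BCL6 represses, 10 rose and 10 fell with sh68, and 8 rose and 8 fell with sh72, with medians of 0.09 and -0.0021, beside 55.5% and 51% of all genes that passed in either direction. Their median absolute log2 fold change was 0.33 in each comparison, where all genes had 0.25 and 0.23. The B-cell activation marker CD69 rose from 0.403 CPM to 1.77 and 1.73, and the phosphatase gene PTPN6 fell from 74.6 CPM to 24.1 and 20.9. IRF7, a factor of the interferon response, fell from 1.60 to 0.322 and 0.813 CPM. TLR7, a sensor of single-stranded RNA, fell with sh72 (4.33 to 1.11 CPM) and not by test with sh68 (3.79 CPM). CCND2, a G1 cyclin, had 7, 1 and 4 reads in shSCR 18, 42 and 36 with sh68, where it passed, and 0, 14 and 12 with sh72, where it did not. In the LSD1 and CoREST list of 13 genes, KDM1A included, 2 rose and 8 fell with sh68 and 2 rose and 8 fell with sh72, where 28.1% and 26.3% of all genes fell. There GFI1, a repressor that recruits LSD1, rose with sh68 (38.4 to 65.6 CPM) but not by test with sh72 (41.4 CPM). Its paralog GFI1B fell from 1.45 CPM to 0.490 and 0.863, and RCOR2, a CoREST paralog, fell as well (-0.49 ± 0.11 with sh68 and -0.28 ± 0.11 with sh72).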

How the data were processed

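Polyadenylated RNA of 9 libraries was counted. The authors deposited raw read counts (1 row a gene symbol, 1 column a library), not normalized. Reads went through CASAVA 1.8.2, STAR 2.5.2 and featureCounts 1.5.2, with genome hg38 listed, per the submitters' processing notes. How multiply matching reads were treated, the strand setting and the annotation: not given in the sources used here. Of the columns, 0 were left unused.

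Counts were fitted in R 4.3.3 with edgeR 4.0.16 (filterByExpr, TMM, quasi-likelihood, 1 term per shRNA over all 9 libraries), and p-values were adjusted over 15725 genes. CPM are TMM scaled, except the summed levels of cell type markers, which use library size alone. SE is the absolute log2 fold change over the square root of F. The fit was checked on simulated counts in which few genes changed, and only with sh68. Most genes passed in these data, so that check does not cover the scaling between libraries. Alternatives were RLE, library size alone, no filter, 1 CPM in 3 libraries, DESeq2 1.42.0, limma 3.58.1 (voom), the groups compared alone, a replicate block, each library left out and, added after seeing the data, GC and length offsets (a value for 83.7% of genes tested and all 9 members). Transcript lengths and exon overlaps come from GENCODE, positions and promoters from RefSeq (GRCh38.p14).

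The 9 genes and 6 further lists were chosen with earlier results of these data known. Named are the 9 genes, the tested genes of the NCOR and PRC1.1 lists, and for other lists the 4 largest passing changes on the mean and the 2 largest differences between shRNAs. Y-linked genes and 1 gene of the NCOR list are not reported here. P-values measure the spread between these libraries, which the labels call biological triplicates without saying whether infections were separate. Replicates differed beyond counting noise (chi-square per degree of freedom 2.63 to 7.15).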

Additional observations from a re-analysis of the deposited data

Results flagged for a closer look

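Of the 9 corepressor genes, 7 differed between the shRNAs in the test of sh72 minus sh68 itself (edgeR, adjusted over all genes, 3 libraries each). The log2 differences were -0.60 ± 0.053 (SE) for BCOR, -0.58 ± 0.041 for TBL1XR1, -0.30 ± 0.042 for KDM2B, -0.22 ± 0.074 for BCORL1 and -0.18 ± 0.049 for GPS2, and 0.29 ± 0.041 for HDAC3 and 0.23 ± 0.036 for NCOR1. In this contrast 56.2% of all tested genes differed, and 67.7% of the 9251 with at least the average level of PCGF1.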

How the results depend on the processing

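Over 18 alternatives, 603 of 648 fold changes of the 9 genes kept their call, 37 lost it, 8 gained one, and 0 reversed. With the 6 LSD1 shRNA libraries as 1 group, the mean had 3581 genes called in place of 8226, and 3 of the 9 genes in place of 9. By that construction the difference between shRNAs counts as spread. All other counts of calls in either direction stayed within 1.5 times. By direction, the genes higher with sh72 were 2 in place of 1 in 7 alternatives, those in which GPS2 passed. Leaving out each library in turn gave 7 to 9 of the 9 genes on the mean, 6 or 7 with sh68, 6 to 8 with sh72 and 6 or 7 between shRNAs. Same-numbered libraries had residual correlations from -0.036 to 0.072, and 2 of 9 libraries correlated best with their own number. Libraries of different number had -0.082 to 0.056. These values show no clear pairing by number but cannot exclude it. With a replicate block, 9, 7, 8 and 7 of the 9 genes passed on the mean, with sh68, with sh72 and between shRNAs. GPS2 with sh72 was the call gained (0.11). Over all genes that fit called 8631, 9173, 8436 and 9190 in the same order, against 8226, 8727, 8022 and 8841 without the block. KDM2B with sh68 passed with GC and length offsets (0.09). Depth limited PCGF1 most: it had 229 to 317 reads a library and the widest SE (0.084 between shRNAs).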
